A study of Mus musculus with 2 samples.

Results

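The genes described here are 57 components of the BMP, TGF-beta and Nodal signalling pathways. They were chosen by symbol from a fixed list, and all 57 were found among the 24354 genes of the expression table. They were divided by arm into 27 BMP members, 9 TGF-beta members, 14 Nodal and activin members and 7 members that the arms share. The values come from 1 RNA-seq library of differentiating control mouse ESCs (Diff–CONT) and 1 library labelled as differentiating inducible Ino80 knockout ESCs (Diff–iKO). The paper describes both ESC lines as blastocyst-derived and homozygous for a floxed Ino80 allele, with the tamoxifen-activated recombinase CreER, expressed from the ROSA26 locus, present only in the iKO line. The sample labels instead call the control genotype WT and the other Ino80 knockout. Both cultures were primed for 2 days in serum and grown as embryoid bodies (EBs), which attached to gelatin on day 4. From the next day they were kept for 7 days in serum-containing medium with added BMP4 protein and 0.5 µM 4-hydroxytamoxifen (4-OHTM), which activates CreER. Every difference below is therefore measured with BMP4 protein supplied to both cultures, and each condition has 1 library, so that no difference has a replicate check and no p-value is given.

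The TGF-beta superfamily consists of secreted dimeric ligands that bring together type I and type II serine/threonine kinase receptors. The type I receptor phosphorylates receptor-regulated Smads, which join Smad4 and enter the nucleus. BMP ligands act mainly through Smad1, Smad5 and Smad9 and are known for inducing the Id genes and for promoting mesoderm and ventral fates, whereas TGF-beta, activin and Nodal act through Smad2 and Smad3. Nodal needs an EGF-CFC co-receptor such as Tdgf1 (Cripto), induces its own inhibitors Lefty1 and Lefty2, and is known for patterning the primitive streak and for its activity in pluripotent cells. Extracellular antagonists (Nog, Chrd, Grem1, Fst, Cer1) bind ligands, and inhibitory Smads (Smad6, Smad7) and the pseudoreceptor Bambi act in the cell.

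Expression is given as FPKM, a count of sequenced fragments that is scaled for transcript length and for library size. Where a gene has a single transcript, low FPKM values fell in steps of 1 fragment. In 85.5% of 1411 such values in Diff–CONT and 84.6% of 1587 in the Diff–iKO-labelled library, the value lay within 0.2 of a whole number of fragments. A step fixed beforehand would give 40% by chance. The step was fitted to these same values, so 40% is not the chance level of these shares. The steps gave about 27700000 fragments on genes in Diff–CONT and 21500000 in the Diff–iKO-labelled library. For each gene the log2 ratio (Diff–iKO-labelled library over Diff–CONT) is given with a 95% interval in parentheses. It was derived from the recovered fragments by the exact Clopper-Pearson method, and it covers counting error only and not variation between cultures. Ino80 itself (chr2:119373042-119477687) had an FPKM of 8.90 in Diff–CONT and 10.3 in the Diff–iKO-labelled library, a log2 ratio of 0.21 (0.11 to 0.31). The transcript level of the targeted gene was thus not lower in the Diff–iKO-labelled library, so that library is called by its label throughout. FPKM over the whole gene does not show whether the floxed part was removed.

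A gene was said to rise or fall when it differed by FC ≥ 2 with FPKM ≥ 2 in at least 1 library. Of the 57 members, 56 reached this FPKM, the exception being the BMP receptor Bmpr1b (0.760 and 0.393). Of these 56, 8 rose (14.3%) and 13 fell (23.2%), 21 in all, in the Diff–iKO-labelled library, while among the 12376 genes of the table that reached the FPKM 6.73% rose and 8.39% fell, 15.1% in all. The counts differed between the arms. In the BMP arm 1 of 26 members rose and 8 fell, in the TGF-beta arm 1 of 9 rose and 2 fell, in the Nodal and activin arm 6 of 14 rose and 2 fell, and of the 7 shared members none rose and 1 fell. The median log2 ratio, taken with a pseudocount of 0.1 and over genes whose mean FPKM was 1 or more, was -0.66 over 26 BMP members, -0.70 over 9 TGF-beta members, 0.76 over 14 Nodal and activin members and -0.04 over 7 shared members. The TGF-beta median was -0.03 when Smad2, Smad3, Smad7, Skil and Tgif1 were counted with that arm. Over 13145 genes of the table it was -0.01. By the counting interval alone, 18 of the 57 members had a ratio above 0, 34 below 0 and 5 had an interval that held 0.

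**Figure D1:**
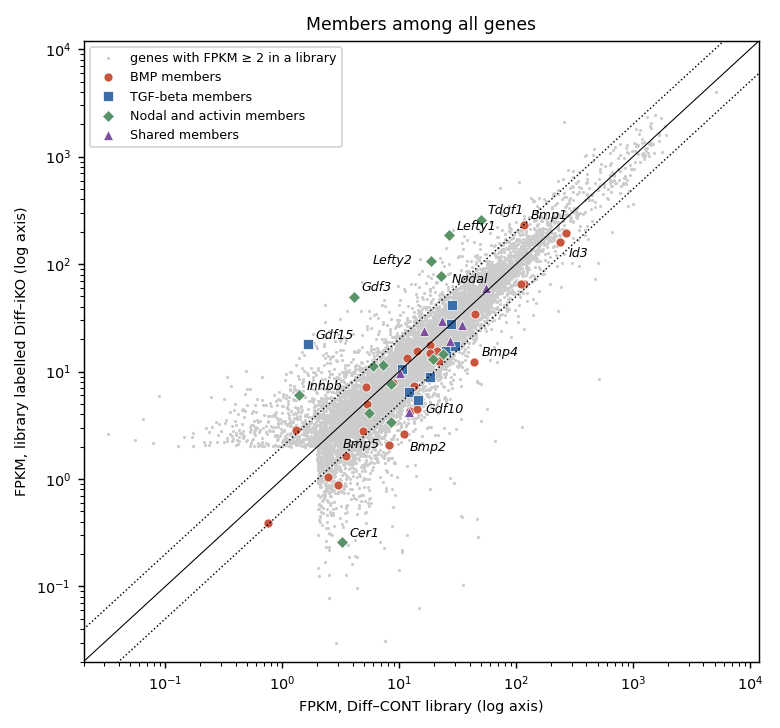
FPKM in Diff–CONT (x axis, log scale) and in the Diff–iKO-labelled library (y axis, log scale) for every gene with FPKM ≥ 2 in at least 1 library (grey) and for the 57 members, coloured by arm. The solid line marks equal FPKM and the dotted lines a fold of 2. The 6 labelled Nodal and activin members other than Cer1 lie above the upper dotted line, while Bmp2, Bmp4, Bmp5 and Gdf10 lie below the lower one.

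Of the 9 BMP ligands, 7 fell and 1 rose. Bmp4 (chr14:46383520-46390669), the ligand also present in the medium as protein, was the most abundant of them. Its FPKM was 43.7 in Diff–CONT and 12.4 in the Diff–iKO-labelled library, 3.52-fold lower, with a log2 ratio of -1.82 (-1.98 to -1.66). Bmp2 (chr2:133552159-133562885), its closest relative and a regulator of early heart and extraembryonic mesoderm, had FPKM values of 11.1 and 2.61 (4.24-fold lower, log2 ratio -2.08, -2.31 to -1.86). These ligands of the same subgroup fell by similar factors, and their intervals overlap. In bulk RNA, fewer cells that express a gene and less RNA per cell cannot be told apart, and this holds for every difference described.

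The second subgroup of ligands, Bmp5, Bmp6, Bmp7, Bmp8a and Bmp8b, did not move as a block. Bmp5 (chr9:75775364-75900310) had an FPKM of 8.23 and then 2.09 (3.93-fold lower, log2 ratio -1.98, -2.22 to -1.74). Bmp7 (chr2:172868012-172940321), which acts in kidney and skeletal development, fell 2.87-fold from 12.4 to 4.30 (log2 ratio -1.52, -1.70 to -1.35). Bmp6 (chr13:38345107-38500302) was near the FPKM minimum and fell 2.37-fold from 2.47 to 1.04 (log2 ratio -1.25, -1.64 to -0.88). Its last exon shares 224 bases with Txndc5 on the opposite strand, a gene with FPKM values of 153 and 186. The paper names a stranded library kit, but the strand setting used for counting is not given in the sources used here. Among the 8 members whose exons overlap another gene of the table, Bmp6 was the only one past the cut-off with a partner above an FPKM of 2.

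Bmp8a and Bmp8b went the other way. Bmp8a (chr4:123312645-123343252) had FPKM values of 1.30 and 2.83, a 2.17-fold rise that rests on 67 and 110 fragments (log2 ratio 1.12, 0.68 to 1.59). Bmp8b (chr4:123105165-123132099) had 5.25 and 7.24, a log2 ratio of 0.46 (0.27 to 0.66), and did not reach the cut-off. The 2 genes are related copies on chromosome 4. Of all stretches of 50 bases in the Bmp8a transcript, 11.2% are also in Bmp8b, and their longest common run is 182 bases of coding sequence, so fragments could be split between them in an uncertain way. Their summed FPKM was 6.55 and 10.1.

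The remaining ligands fell. Gdf6 (chr4:9844372-9862345), a ligand of joint and retinal development, had FPKM values of 3.52 and 1.64 (2.15-fold lower, log2 ratio -1.10, -1.41 to -0.80). The intervals of Gdf6, Bmp6 and Bmp8a include folds under the cut-off, and these calls are lost with a pseudocount of 1 or an FPKM minimum of 5. Gdf10 (chr14:33923587-33937983), also called BMP3b, had 14.1 and 4.47 (3.14-fold lower, log2 ratio -1.65, -1.80 to -1.51). Summed over the 9 ligands, FPKM was 102 in Diff–CONT and 38.6 in the Diff–iKO-labelled library. Bmp4 made up 42.8% of that sum in Diff–CONT and 32.1% in the Diff–iKO-labelled library, and Bmp8b 5.15% and 18.7%. Bmp1, a metalloproteinase that cleaves Chrd and procollagens and is not a BMP ligand despite its name, was at 116 and 232. Its fold of 1.996 lay just under the cut-off, with a log2 ratio of 1.00 (0.96 to 1.03).

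**Figure D2:**
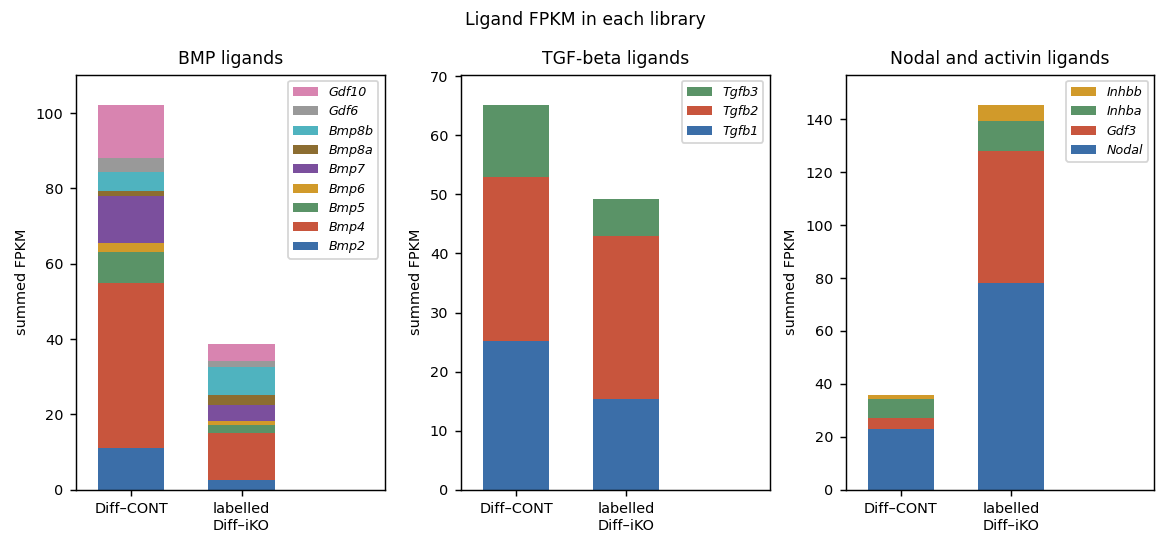
Stacked FPKM of the BMP, TGF-beta and Nodal and activin ligands (y axis, summed FPKM, from 0) in Diff–CONT and in the Diff–iKO-labelled library, 1 bar per library. The BMP sum is 102 and 38.6, the Tgfb1, Tgfb2 and Tgfb3 sum 65.1 and 49.3, and the sum of Nodal, Gdf3, Inhba and Inhbb 35.8 and 145. Gdf15 and Inha are not in the bars. With Gdf15 the TGF-beta sum is 66.8 and 67.2, and with Inha the Nodal and activin sum is 41.3 and 149.

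None of the BMP receptors that reached the FPKM minimum passed the cut-off. Bmpr1a, the main type I BMP receptor of the early embryo, had FPKM values of 44.3 and 34.3 (log2 ratio -0.37, -0.42 to -0.31). Bmpr2, the type II receptor dedicated to BMPs, had 14.3 and 15.5 (0.11, 0.06 to 0.17). Acvr1 (ALK2) had 18.5 and 17.8, and Acvrl1 (ALK1), the endothelial type I receptor, 5.29 and 4.96, and for both the counting interval held 0. Receptor transcripts of this arm thus differed much less between the libraries than ligand transcripts did, with a median log2 ratio of -0.07 over 4 receptors against -1.50 over 9 ligands.

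All 4 Smads assigned to the BMP arm had lower FPKM in the Diff–iKO-labelled library, and 1 fell. Smad9 (chr3:54755582-54801257), the least abundant of the BMP-regulated Smads, fell 3.42-fold from 2.99 to 0.876 (log2 ratio -1.77, -2.10 to -1.47). Smad1 had FPKM values of 13.5 and 7.38 (log2 ratio -0.88, -1.03 to -0.72). Smad5, the most abundant of them in both libraries, had 21.0 and 15.7 (-0.42, -0.51 to -0.33). The inhibitory Smad6, itself a BMP target, had 18.3 and 14.8 (-0.30, -0.42 to -0.18).

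The BMP antagonists did not pass the cut-off in either direction. Nog, which traps BMP ligands, had FPKM values of 11.6 and 13.3 (log2 ratio 0.19, 0.01 to 0.38). Grem1 had 8.85 and 7.82 (-0.18, -0.32 to -0.04), and Chrd 4.88 and 2.77 (-0.82, -1.08 to -0.56). With the ligands lower, the sum of Nog, Chrd and Grem1 over the sum of the 9 BMP ligands was 0.249 in Diff–CONT and 0.618 in the Diff–iKO-labelled library. Fstl1, a secreted glycoprotein that can bind BMPs and is a product of mesenchymal cells, was the most abundant of all members in Diff–CONT, with 268 and 194 (-0.47, -0.50 to -0.44).

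The Id genes encode helix-loop-helix proteins that block differentiation factors and are direct targets of the BMP Smads. All 4 had lower FPKM in the Diff–iKO-labelled library and none passed the cut-off. Id1 had FPKM values of 117 and 65.3 (log2 ratio -0.84, -0.94 to -0.74) and Id2 had 110 and 65.4 (-0.75, -0.84 to -0.66). Id3, the most abundant, had 237 and 160 (-0.57, -0.63 to -0.52), and Id4 had 22.1 and 12.5 (-0.81, -0.92 to -0.71). Their sum was 486 and 303. The 4 ratios lay within a narrow range, -0.84 to -0.57, while those of all 9 BMP ligands ran from -2.08 to 1.12.

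Smad proteins bind the short Smad box GTCT (AGAC on the other strand), and the BMP Smads also bind the GC-rich site GGCGCC, which is its own reverse complement. The 250 bases before the RefSeq start were searched on both strands in 32851 windows, of which 39 members had 50. The Smad box was present in 82.9% of all windows and in 43 of the members' 50, the GC-rich site in 9.59% and in 9 of 50, and the palindrome GTCTAGAC, which is formed from adjoining Smad boxes on opposite strands, in 0.167% and in 0 of 50. The Id2 window held 1 GC-rich site, 231 bases before the start, and 1 Smad box. The Id3 window held 2 Smad boxes, 166 and 68 bases before the start. The windows of Id4 and of Smad6, both BMP targets, are printed because no GENCODE exon overlaps them, whereas those of Id2 and Id3 overlap untranslated exons by 161 and 250 bases. Sequences are from RefSeq (GRCm38.p6), written 5′ to 3′ on the strand of the gene, for Id4 at chr13:48260866-48261115 (+) and for Smad6 at chr9:64022060-64022309 (-), with matches to GGCGCC or to the Smad box in capitals.
Id4: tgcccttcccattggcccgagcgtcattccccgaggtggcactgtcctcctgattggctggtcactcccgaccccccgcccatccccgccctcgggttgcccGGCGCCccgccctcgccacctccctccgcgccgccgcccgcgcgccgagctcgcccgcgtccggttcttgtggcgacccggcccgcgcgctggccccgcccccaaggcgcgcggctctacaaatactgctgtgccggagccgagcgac
Smad6: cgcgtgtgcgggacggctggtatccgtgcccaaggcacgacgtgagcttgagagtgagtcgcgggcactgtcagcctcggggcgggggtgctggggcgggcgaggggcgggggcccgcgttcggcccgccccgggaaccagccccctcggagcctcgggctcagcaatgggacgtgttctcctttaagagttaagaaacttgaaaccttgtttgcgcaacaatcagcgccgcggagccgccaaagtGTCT
Id4 held 1 GC-rich site, 148 bases before the start, and no Smad box, and Smad6 held 1 Smad box, 4 bases before the start. These are matches of letters only.

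The TGF-beta arm had no common direction. Of the ligands, Tgfb1, the main immune and stromal isoform, had FPKM values of 25.2 and 15.4 (log2 ratio -0.71, -0.84 to -0.58), and Tgfb3, which acts in palate and lung development, had 12.1 and 6.41 (-0.92, -1.08 to -0.76). Tgfb2, the isoform of heart and neural crest development, had 27.8 and 27.5 (-0.02, -0.08 to 0.05). None of the 3 passed the cut-off, and Tgfb2 made up 42.7% of their summed FPKM in Diff–CONT and 55.7% in the Diff–iKO-labelled library.

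Gdf15 (chr8:70629393-70632456), a divergent member of the family that signals through GFRAL and is known as a stress-induced cytokine, showed the largest fold of the arm. Its FPKM was 1.67 in Diff–CONT and 17.9 in the Diff–iKO-labelled library, 10.7-fold higher, with a log2 ratio of 3.42 (3.02 to 3.82). The ratio rests on 60 and 481 fragments. Its receptor is not one of the members.

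Of the TGF-beta receptors, 2 of 3 fell. Tgfbr1 (chr4:47353222-47414931), the type I receptor, had FPKM values of 18.3 and 8.88 (2.06-fold lower, log2 ratio -1.04, -1.24 to -0.85), so that the interval includes folds under the cut-off. Tgfbr3 (betaglycan, chr5:107106570-107289629), a co-receptor that presents TGF-beta 2 and binds inhibin, fell 2.65-fold from 14.5 to 5.45 (-1.41, -1.53 to -1.29). Tgfbr2, the type II receptor, had 10.5 and 10.6 (0.02, -0.12 to 0.15). The latent TGF-beta binding proteins, which anchor the inactive ligand in the matrix, went in opposite directions. Ltbp1 had 30.1 and 17.2 (-0.80, -0.88 to -0.73) and Ltbp3 28.3 and 41.4 (0.55, 0.49 to 0.61).

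**Figure D3:**
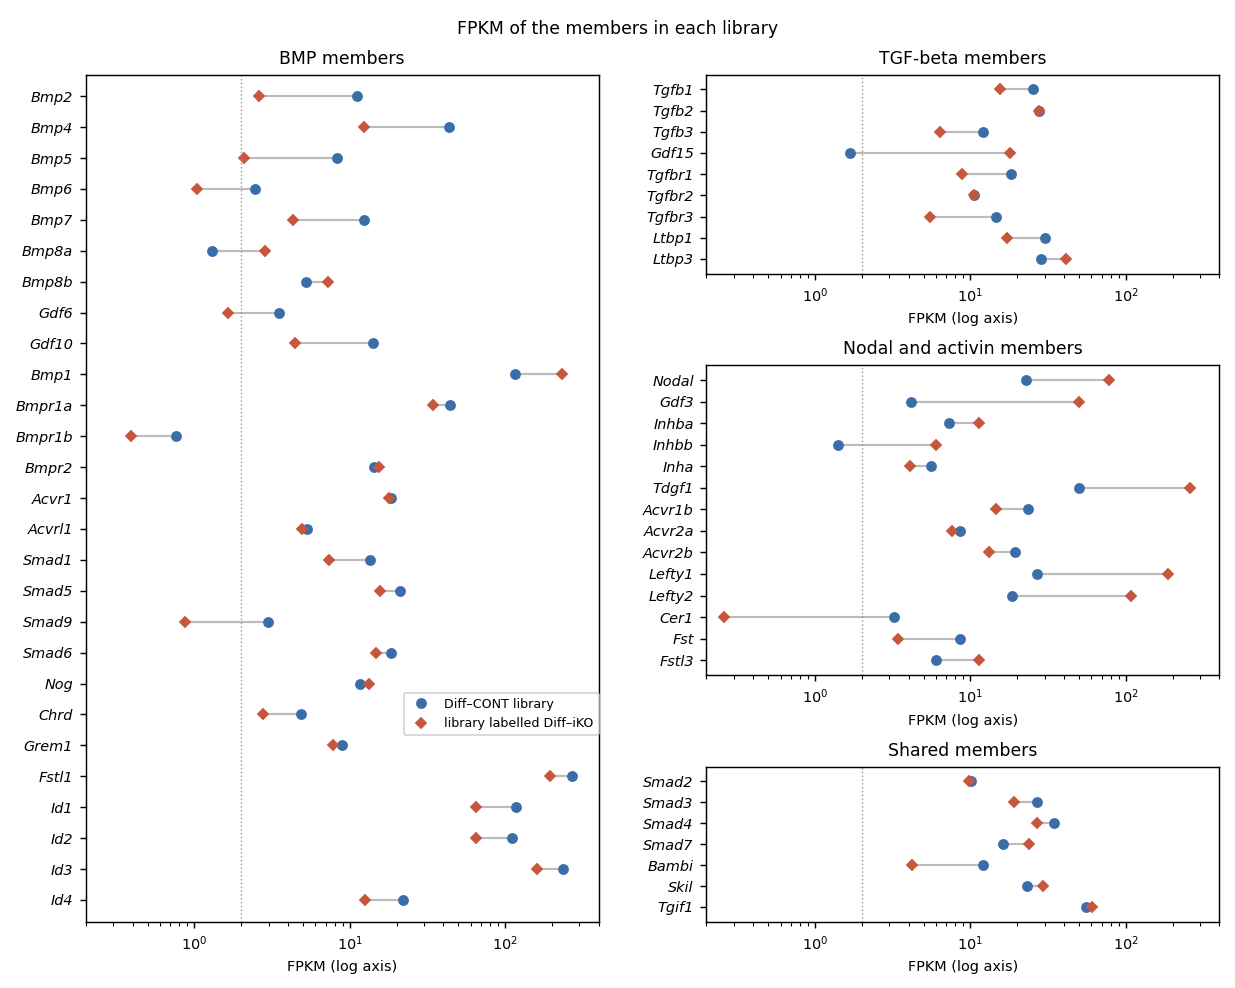
FPKM of each member (x axis, log scale) in Diff–CONT (circles) and in the Diff–iKO-labelled library (diamonds), by arm, with the FPKM minimum of 2 dotted. In the BMP panel 22 of 27 diamonds lie to the left of their circles, and in the Nodal and activin panel 8 of 14 lie to the right.

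In the Nodal and activin arm, 3 of 5 ligand genes rose. Nodal (chr10:61417972-61425338) had FPKM values of 22.9 and 78.2 (3.41-fold higher, log2 ratio 1.77, 1.68 to 1.86). Gdf3 (chr6:122605403-122610087), a Nodal-like ligand of pluripotent cells, had 4.12 and 49.7, 12-fold higher, the largest rise of the 57 members (3.59, 3.40 to 3.79). Inhbb (chr1:119415465-119422248), the subunit of activin B, rose 4.29-fold from 1.40 to 6.0 (2.10, 1.85 to 2.36). Inhba, the subunit of activin A, had 7.32 and 11.4 (0.64, 0.41 to 0.87), and Inha, the subunit that turns activin into inhibin, 5.56 and 4.08 (-0.45, -0.79 to -0.12). The ligand genes with activating products were thus all higher in the Diff–iKO-labelled library, and the inhibin subunit was not.

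Tdgf1 (Cripto, chr9:110939603-110946158), the co-receptor of Nodal, had the highest FPKM of any member in the Diff–iKO-labelled library. It rose 5.2-fold from 49.8 to 259 (log2 ratio 2.38, 2.31 to 2.44), and its ratio to Nodal was 2.17 in Diff–CONT and 3.31 in the Diff–iKO-labelled library. The activin receptors had lower FPKM and did not pass the cut-off. Acvr1b (ALK4), the type I receptor, had 23.5 and 14.5 (-0.70, -0.79 to -0.61). The type II receptors Acvr2a and Acvr2b, which BMPs also use, had 8.51 and 7.63 and 19.3 and 13.2, respectively.

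Lefty1 and Lefty2, feedback inhibitors that Nodal induces, rose together. Lefty1 (chr1:180935022-180938400) had FPKM values of 26.9 and 186 (6.91-fold higher, log2 ratio 2.79, 2.7 to 2.88). Lefty2 (chr1:180893108-180899103) had 18.6 and 108 (5.80-fold higher, 2.54, 2.45 to 2.63). Their sum over Nodal was 1.99 in Diff–CONT and 3.76 in the Diff–iKO-labelled library, so both inhibitors differed by larger factors than their inducer. The 2 genes are related copies, and 17.9% of the stretches of 50 bases in the Lefty1 transcript are also in Lefty2. Fragments could be divided between them in an uncertain way. The summed FPKM of both copies was 45.5 in Diff–CONT and 294 in the Diff–iKO-labelled library.

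The other antagonists of this arm differed from the Lefty genes. Cer1 (chr4:82881751-82885148), a secreted inhibitor of Nodal and BMP made by anterior endoderm, fell 12.5-fold from 3.23 to 0.258. The log2 ratio of -3.65 (-4.80 to -2.68) rests on 150 and 9 fragments. Fst (follistatin, chr13:114452290-114458951), which binds activin, fell 2.49-fold from 8.54 to 3.42 (-1.32, -1.71 to -0.92, which includes folds under the cut-off). Its relative Fstl3 had 6.03 and 11.3 (0.91, 0.70 to 1.12), just under the cut-off. The order of the follistatins was reversed between the libraries, with Fst over Fstl3 at 1.42 in Diff–CONT and 0.302 in the Diff–iKO-labelled library. The sum of Inhba and Inhbb over Fst was 1.02 and 5.08.

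**Figure D4:**
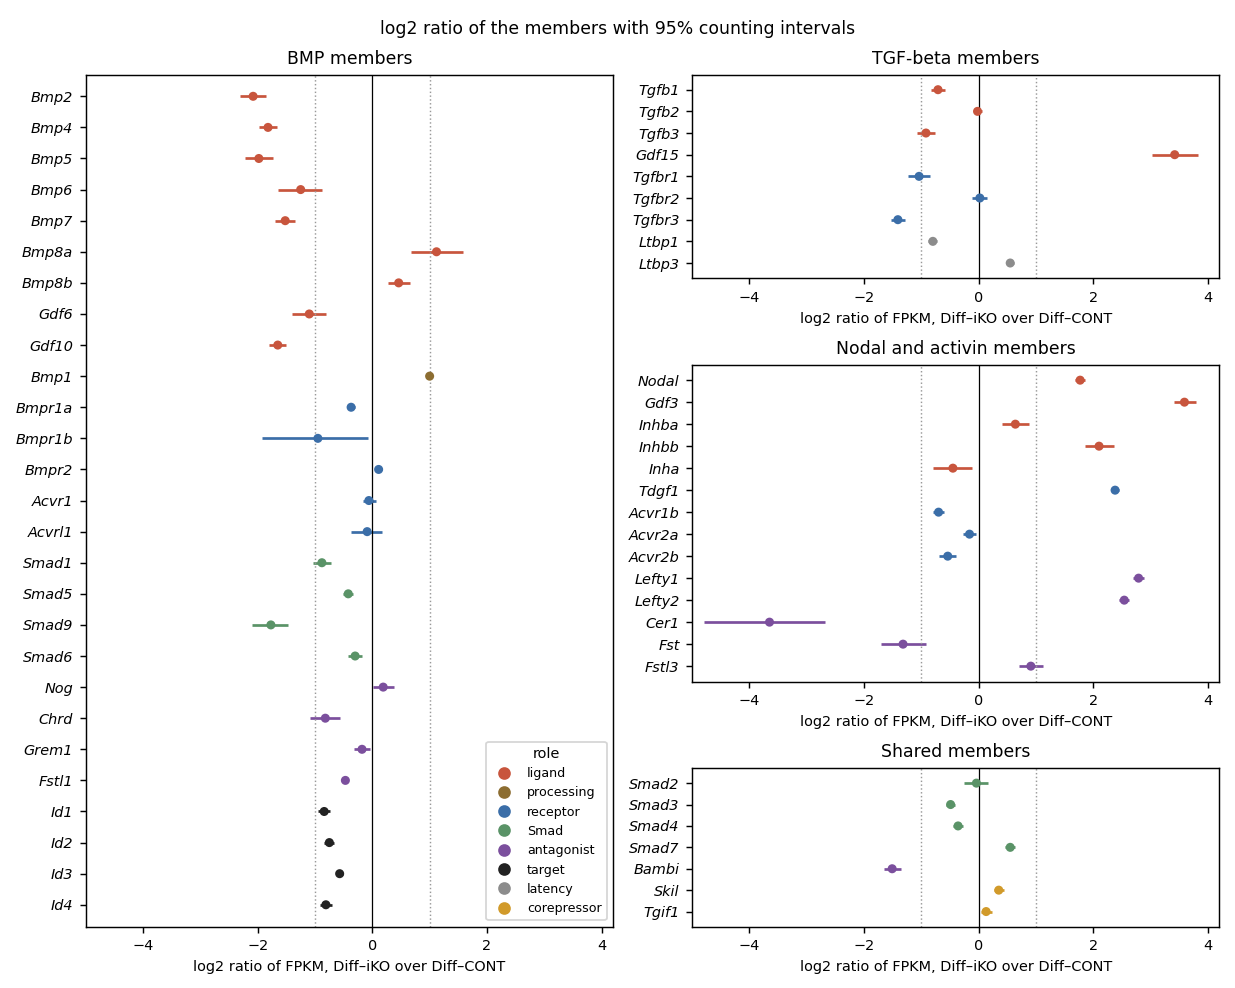
The log2 ratio of FPKM (x axis, Diff–iKO-labelled library over Diff–CONT) of each member, coloured by role, with its exact 95% counting interval as a bar. The bars hold counting error only, and the dotted lines mark a fold of 2. Bmpr1b and Cer1 have the widest bars, and 5 members have bars that hold 0.

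Of the 7 members that the arms share, 1 fell. Bambi, a pseudoreceptor without a kinase domain that is induced by BMP and blocks type I receptors, had FPKM values of 12.1 and 4.23 (2.85-fold lower, log2 ratio -1.51, -1.66 to -1.36). The Smads differed little. Smad2 had 10.1 and 9.80 (-0.04, -0.25 to 0.17), Smad3 27.0 and 19.2 (-0.49, -0.57 to -0.42), and the common partner Smad4 34.7 and 27.0 (-0.36, -0.44 to -0.28). Smad7, an inhibitory Smad induced by TGF-beta, had 16.3 and 23.9 (0.55, 0.46 to 0.64). The corepressors Skil (SnoN) and Tgif1, which restrain Smad2 and Smad3, had 23.1 and 29.5 and 55.2 and 60.5, respectively. The targets and feedback genes were therefore not lower in all arms. Bambi, Smad6 and the Id genes were lower, Smad7 and Skil were slightly higher, and Lefty1 and Lefty2 rose.

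Beyond the 57 members, 71 further genes of the same pathways were listed, of which 50 reached the FPKM minimum, 10 rose and 9 fell. In the BMP list of 27, 16 reached the minimum, 1 rose (6.25%, near the share over all genes) and 3 fell (18.8%). The metalloproteinase gene Tll1 rose from 2.01 to 4.46. Msx1, a homeobox target of BMP, fell and had FPKM values of 17.3 and 3.01 (log2 ratio -2.52), while the related Msx2 had 25.9 and 23.3. Rgma, a BMP co-receptor, had 20.6 and 10.2, a fold of 2.01. The median log2 ratio of this list was -0.17 over 17 genes, nearer to 0 than that of the BMP members.

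In the TGF-beta list of 22 genes, 21 reached the FPKM minimum, 7 rose (33.3%, against 6.73% of all genes) and none fell. By contrast, the member ligands and receptors of this arm were mostly lower. Thbs1, whose product can activate latent TGF-beta, had the highest FPKM of the list, with 228 and 595 (log2 ratio 1.38). Ctgf, a target of TGF-beta and of YAP, had 139 and 385 (1.47). Cd109, a TGF-beta co-receptor, had 6.44 and 14.3, and the co-receptor Eng, which is also an endothelial marker, 7.31 and 28.9. Tgfbi, another target, had 137 and 79.4 (-0.79) and Pmepa1 12.7 and 16.1 (0.34), so the targets did not share a direction. The median of this list was 0.34 over 21 genes.

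In the Nodal and activin list of 22 genes, 13 reached the FPKM minimum, 2 rose (15.4%) and 6 fell (46.2%, against 8.39% of all genes). Pcsk6, a convertase that processes the Nodal precursor, rose from 6.33 to 34.4 (log2 ratio 2.44), and Nomo1, a Nodal modulator, from 87.3 to 204. The second convertase Pcsk5 fell from 8.94 to 3.87. Cfc1 (Cryptic), the other EGF-CFC co-receptor, fell from 10.5 to 0.209, so that the co-receptors moved in opposite directions. The mesendoderm genes T, Eomes and Lhx1 fell. T (Brachyury) had 7.83 and 1.2, Eomes 5.25 and 1.48, and Lhx1 4.74 and 0.296. Nodal, Pcsk6, Tdgf1, Lefty1 and Lefty2 were thus higher in the same library in which Pcsk5, Cfc1, Cer1 and these mesendoderm genes were lower. Foxh1, the DNA-binding partner of Smad2, had 24.6 and 18.8.

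Markers of cell types that the cultures could hold were also listed, and not every list had a common direction. Of 10 markers of pluripotent cells, all 10 were higher in the Diff–iKO-labelled library and 9 rose, with a summed FPKM of 446 in Diff–CONT and 2778 in the Diff–iKO-labelled library. Dppa5a, with 258 and 2115, made up 57.8% and 76.1% of that sum. Pou5f1 had 60.8 and 247, Utf1 27.0 and 101, and Nanog 19.5 and 81.2. Nodal, Gdf3, Tdgf1, Lefty1 and Lefty2, which pluripotent cells also express, had log2 ratios from 1.77 to 3.59, beside a median of 2.04 over the 10 markers. The part of undifferentiated cells in these ratios was not tested.

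Of 8 markers of extraembryonic endoderm, all 8 were lower and 7 fell, from a sum of 228 to 18.8. Ttr had 66.7 and 2.28, Dab2 50.6 and 7.71, and Afp 45.9 and 0.422. Cer1 and 7 of the 9 BMP ligands were lower in the same library, and the part of endoderm cells in this was not tested. Of 8 mesenchyme markers 7 were lower and 4 fell (Pdgfra, Postn, Lum and, by a fold of 2.02, Prrx1), but the sum was 1514 and 1499 because Col1a1 had 880 and 1199. The 3 cardiomyocyte markers that reached the FPKM minimum, Tnnt2, Myh7 and Myl7, all fell (sum over 8 markers 38.6 and 10.5). Of 8 endothelial markers 5 fell (Cdh5, Kdr, Tek, Tie1 and Emcn) while Pecam1 and Eng rose (sum 63.5 and 98.2). Of 8 trophoblast markers Tfap2c, Ascl2, Prl3d1 and Krt7 rose while Cdx2 and Hand1 fell (sum 123 and 151). Of 8 neural markers Dcx fell (sum 140 and 132). No marker of these lists was listed at 0. Their part in the differences of the signalling genes was not tested.

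**Figure D5:**
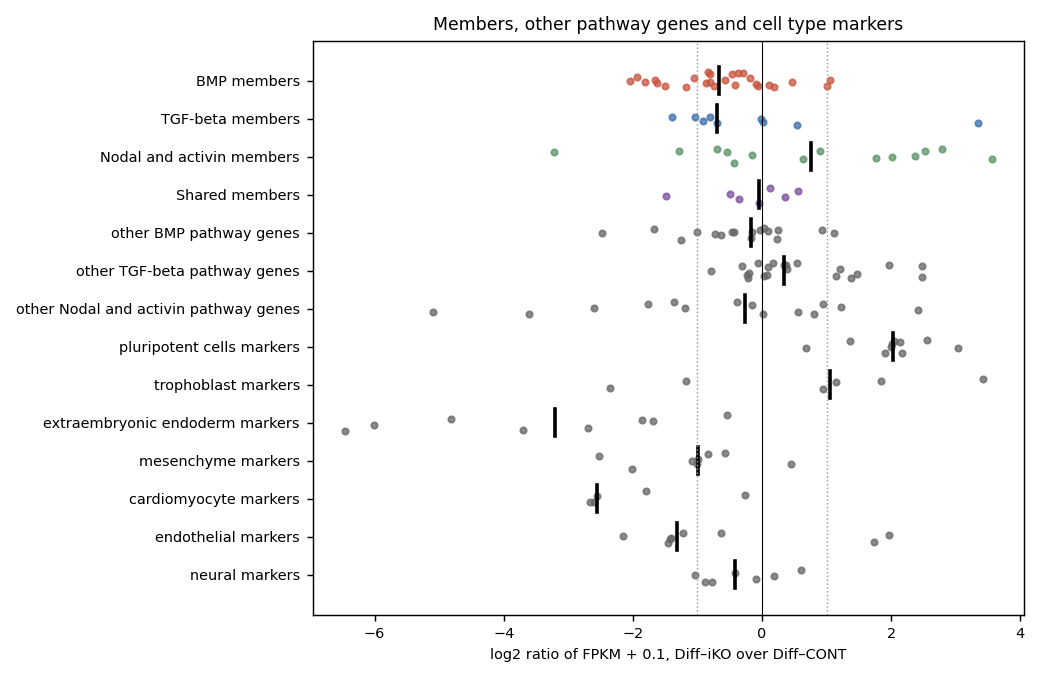
The log2 ratio of FPKM + 0.1 (x axis, Diff–iKO-labelled library over Diff–CONT) of the members by arm, of the other genes of the pathways and of the cell type markers, for genes whose mean FPKM was 1 or more. Each point is a gene, the black bars are medians and the dotted lines mark a fold of 2. The medians of the BMP, TGF-beta and Nodal and activin members are -0.66, -0.70 (-0.03 with Smad2, Smad3, Smad7, Skil and Tgif1) and 0.76, and those of the pluripotent and extraembryonic endoderm markers 2.04 and -3.20.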

How the data were processed

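RNA was sequenced from 1 Diff–CONT library and 1 library labelled Diff–iKO, grouped by their sample titles. The authors deposited FPKM values for 24354 genes, and the submitters' processing notes name mm10, STAR 2.7.9a, Cuffnorm and Cufflinks 2.2.1. The paper names a stranded mRNA library kit, but the annotation and the strand setting used for counting are not given in the sources used here. The table held 0 other columns of values. Some genes and sequences are not reported here.

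FC was the ratio of FPKM without a pseudocount, and the cut-off was FC ≥ 2 with FPKM ≥ 2 in at least 1 library. Both thresholds are those of the study, whose methods do not state a pseudocount or in which library the FPKM minimum was applied. Groups of genes were described by counts and by their median log2 ratio (pseudocount of 0.1, mean FPKM of 1 or more). With 1 library per condition no test was made. Fragments were recovered from the steps in FPKM of 13168 genes with a single transcript of at least 1000 bases. Those of other genes use the shortest annotated transcript and are approximate. The steps were tested on simulated data.

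Of the symbols, 23315 matched GENCODE vM21 (GRCm38), which gave all coordinates of genes. Ctgf and Hfe2 are older symbols of listed genes, and Ctgf has no interval. Members and lists were chosen with earlier results of these data known. All members were named, with coordinates where past the cut-off except Bambi. Of other pathway genes up to 12 past the cut-off with the highest FPKM were named, and of cell type lists up to 3 genes. Tll1, Tgfbi, Pmepa1, Msx2, Foxh1, T, Eomes, Lhx1, Nanog and the called markers of mixed lists fall outside this rule and were added with their values known. Python 3.11.15, numpy 2.4.6, pandas 2.3.3 and scipy 1.17.1 were used.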

Additional observations from a re-analysis of the deposited data

How the results depend on the processing

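No member changed direction past the cut-off under any alternative. An FPKM minimum of 5 left out Bmp6, Bmp8a, Cer1, Gdf6 and Smad9, and a pseudocount of 1 left out Bmp6, Bmp8a, Gdf6 and Tgfbr1. Scaling to an equal sum of FPKM shifted log2 ratios by -0.09, added Tgfb3 to the members that fell, and turned Tgfbr2 from 0.02 to -0.08. Scaling to an equal upper quartile added Bmp1 to those that rose. A fold of 4 kept 8 of the 21 called members and a fold of 1.5 gave 33.

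With a pseudocount of 0.1 the fold cut-off gave 807 higher and 1002 lower genes of the table, against 833 and 1038 without it. The called members and the counts of other pathway genes stayed at 21, 10 and 9, while the markers Prrx1 (log2 ratio -0.99) and Ascl2 (0.95) were no longer past it. Without an FPKM minimum, 2794 genes of the table were higher and 2761 lower, and with a minimum of 5, 671 were lower. A fold of 1.5 gave 1846 higher and 2177 lower genes and 22 lower members. A fold of 4 gave 278 higher and 237 lower genes and 2 lower members. For the other pathway genes, whose alternatives were added after the data were seen, no minimum gave 18 higher and 16 lower, and a fold of 4 gave 3 and 4. The BMP median was -0.47 over members whose mean FPKM was 5 or more, -0.75 over all members above 0 and -0.75 at an equal sum. The TGF-beta median was -0.03 when Smad2, Smad3, Smad7, Skil and Tgif1 were counted with that arm, which changes the genes it is taken over. Counting fragments on the longest transcript moved no member's interval to or from 0. No paired analysis was possible because each condition has 1 library, and no library could be left out. Symbols were unique, so summing rows of a symbol changed nothing.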

Other observations

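Gdf3 lies on chromosome 6 beside other genes of pluripotent cells, a group that was looked up after the values were seen. Its neighbours Dppa3, with FPKM values of 10.2 in Diff–CONT and 46.1 in the Diff–iKO-labelled library, and Apobec1, with 1.04 and 2.86, both rose, as did Nanog, with 19.5 and 81.2. Slc2a3, a glucose transporter gene of the same region, had 933 and 483 and did not pass the cut-off. For each member past the cut-off, the nearest gene on either side with FPKM ≥ 2 in a library was taken. Of 16 such neighbours of members that rose, 3 rose, 0 fell and 13 did neither, and 2 of those 3 were the neighbours of Gdf3, the third being Lrrc2 beside Tdgf1 (0.461 and 4.45). Of 26 neighbours of members that fell, 2 rose, 3 fell and 21 did neither. Among all genes with FPKM ≥ 2 in a library, 6.73% rose and 8.39% fell. Apobec1 and Lrrc2 reached that FPKM only in the Diff–iKO-labelled library. Hmgcll1, a neighbour that fell (3.04 and 1.33), reached it only in Diff–CONT. These calls thus depend on the filter, and no test was made.

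The listed Y-linked genes, 4 in all, had a summed FPKM of 12.1 in Diff–CONT and 3.88 in the Diff–iKO-labelled library. The part of a difference between the ESC lines in the values of the signalling genes was not tested, and line and genotype cannot be told apart with 1 library each.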
